A study of Homo sapiens with 8 samples.

Results

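The HOX genes of HAP1 cells are described here, with the long noncoding RNAs (lncRNAs) transcribed from the same clusters. HAP1 is a near-haploid human cell line derived from the leukemia line KBM-7. Nuclei from 3 independent cultures were split with a buffer of urea and detergent into a chromatin pellet and a soluble nucleoplasm fraction. Directional short-read libraries were made of both fractions (3 chromatin and 3 nucleoplasm), and nanopore long-read libraries of chromatin RNA only (2 libraries). Both fractions were taken from the same untreated cells, so the short-read groups differ by fraction and not by treatment. For long reads the RNA was polyadenylated and primed with polyT, so long-read and short-read values also differ by platform and preparation. The question was which HOX transcripts stayed with chromatin and which were released.

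Members were taken from GENCODE release 44 on hg38 as every gene whose symbol starts with HOXA, HOXB, HOXC or HOXD, plus HOTAIR, HOTAIRM1, HOTTIP and HAGLR. The annotation held 56 such genes, 39 coding and 17 noncoding. A member had to match a row of both deposited tables, by identifier or by a same-strand span with a Jaccard index (shared length over joint length) of at least 0.5, and be above 0 in at least 3 short-read libraries. This left 41 genes, 27 coding and 14 noncoding, out of 62635 gene rows in the short-read table. Of the 15 others, 11 lay inside a larger assembled row and had no row of their own, and 4 (HOXB1, HOXB-AS4, HOXC-AS1 and HOXD1) were above 0 in fewer than 3 libraries.

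The 41 genes sat on 39 measured loci, since HOXA9 and HOXA10 shared a row, as did HOXC6 and HOXC4. In all, 6 loci covered several HOX genes. The HOXA3 locus also held HOXA4, HOXA5 and HOXA6. The HOXB3 locus held HOXB4 and HOXB6, the HOXD3 locus held HOXD4, the HOXC6/HOXC4 locus held HOXC5, HOXC9 and HOXC10, and the HOXB-AS3 locus held HOXB-AS1. The short-read value of such a locus cannot be divided among its genes. Near the matching limit, HOXA10 (Jaccard index 0.542) and HOXC4 (0.551) were inside and HOXA13 (0.479) was outside.

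HOX genes encode homeodomain transcription factors that give cells their position along the body axis. They lie in 4 clusters, and within a cluster the order of the genes, counted by paralog number from the 3′ end to the 5′ end, follows the order in which they are used from head to tail. HOX proteins bind DNA together with TALE homeodomain cofactors of the PBX, MEIS and PKNOX families, while Polycomb and trithorax complexes keep the clusters silent or active. Many lncRNAs are made from the clusters, often from the strand opposite a coding gene. HOTAIR, made in the HOXC cluster, is known for its link to Polycomb, and HOTTIP, next to HOXA13, for its link to WDR5 and MLL.

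MicroRNAs of the miR-10 and miR-196 families are also embedded in the clusters, and several measured rows ran across their genes, so that a row can hold RNA of a coding gene, of a microRNA precursor, or of both. The mature forms are shown because they mark these rows. They are printed 5′ to 3′ from RefSeq (GRCh38.p14), with the seed, bases 2 to 8, in capitals. The miR-10 forms come from the HOXB3 row (miR-10a) and the HOXD3 row (miR-10b), and the miR-196 forms from the HOXC6/HOXC4 and HOXB7 rows (miR-196a) and the HOXA9/HOXA10 row (miR-196b). The miR-196 forms share the seed AGGUAGU and differ by A12C, counted from the 5′ end with the miR-196a base named first.
hsa-miR-10a-5p: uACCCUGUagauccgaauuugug
hsa-miR-10b-3p: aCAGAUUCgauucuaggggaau
hsa-miR-196a-5p: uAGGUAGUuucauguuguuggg
hsa-miR-196b-5p: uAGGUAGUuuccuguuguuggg

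Gene counts recovered from the deposited values, ERCC standards included, summed to 38895027 to 43804918 in the chromatin libraries and 75737601 to 79523938 in the nucleoplasm libraries. Values are counts per gene divided by a DESeq2 size factor, called normalized counts below. Fraction markers went with the titles of the libraries, with the nuclear lncRNA MALAT1 at a log2 fold change (chromatin over nucleoplasm) of 3.09 ± 0.08 (SE) and the messenger RNA of GAPDH at -2.35 ± 0.08. Of 9 blood markers listed, 8 had a row and 5 of them (PTPRC, SPI1, MPO, GATA1 and CD3E) were at 0 in all 6 libraries. The 8 measured markers together reached at most 19.3 normalized counts in a library. The 4 mesenchymal markers VIM, FN1, COL1A1 and THY1 summed to 6985 to 8045 normalized counts in chromatin and 20335 to 20508 in nucleoplasm, and the 3 epithelial markers EPCAM, KRT8 and KRT18 to 1056 to 1234 and 2965 to 3156. Each library is a bulk of 1 culture, so fewer cells with a transcript and less transcript per cell cannot be told apart.

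The test took genes that reached 10 normalized counts in 3 or more libraries, and 32 of the 39 HOX loci passed, 20 of 25 coding and 12 of 14 lncRNA loci. Calls needed an adjusted p under 0.05 (limma, Benjamini-Hochberg over 26066 genes) and a difference of more than 4-fold. By this rule 3 HOX loci were called in chromatin, the HOXD3 locus, HOXA2 and the lncRNA HOXA-AS3, where 21.2% of all tested genes were called. No HOX locus was called in nucleoplasm, by limma, edgeR or DESeq2, where 8.47% of all genes were called, and 14 had an unadjusted p under 0.05 in limma in that direction. At adjusted p under 0.05 without the fold minimum, 10 loci were higher in chromatin (44.2% of all genes) and 14 higher in nucleoplasm (45.2% of all genes), and 8 did not pass. The fractions did not overlap in any of these 24 loci. These loci were picked by p from the same libraries, and the share of all genes without overlap was not counted.

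**Figure D1:**
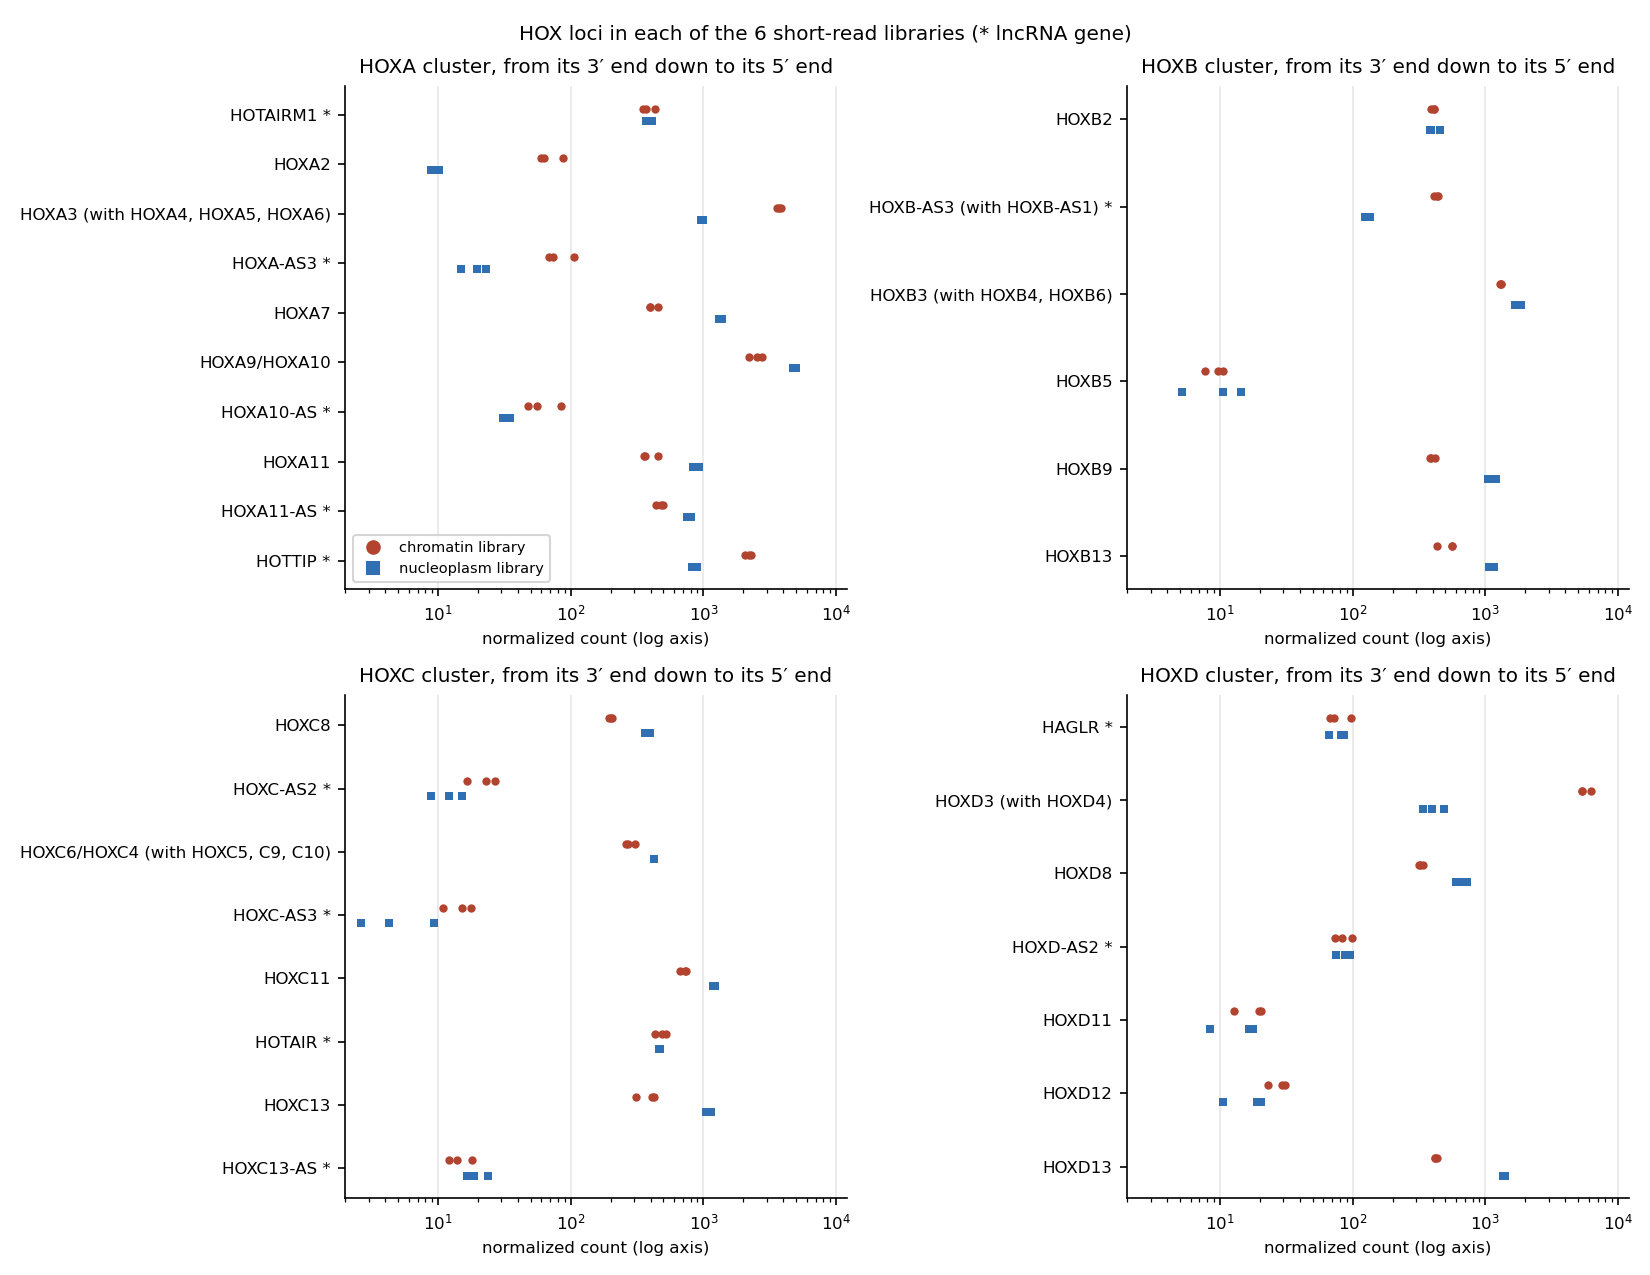
Normalized counts (log axis) of tested HOX loci in each of the 3 chromatin (red circles) and 3 nucleoplasm (blue squares) short-read libraries, by cluster; lncRNA loci carry a star. The HOXD3 locus is the highest in chromatin, at 5358 to 6242, and is at 339 to 488 in nucleoplasm.

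The largest difference was that of the HOXD3 locus (assembled row MSTRG.19574, chr2:176136093-176173102, plus strand), which also holds HOXD4 and MIR10B. HOXD3 and HOXD4 are anterior members of the HOXD cluster. Its normalized counts were 5371, 6242 and 5358 in chromatin and 339, 488 and 393 in nucleoplasm. All 3 chromatin libraries were more than 10 times as high as any nucleoplasm library, and the fold change was 14.0 (log2 3.81 ± 0.13 SE, adjusted p = 2.10e-08 in limma). It was the only HOX locus still called in chromatin when libraries were scaled to the same total of ERCC standards (log2 2.49).

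HOXA2 (MSTRG.30336, chr7:27100354-27102686, minus strand), which patterns the hindbrain and the second pharyngeal arch, was 62.9, 87.7 and 59.3 in chromatin and 8.78, 9.47 and 10.1 in nucleoplasm. The fractions did not overlap, and the fold change was 6.69 (log2 2.74 ± 0.20, adjusted p = 1.64e-06). Its neighbor, the HOXA3 locus (MSTRG.30337, chr7:27106184-27152631), with HOXA4, HOXA5 and HOXA6, was 3875, 3708 and 3602 in chromatin and 977, 993 and 961 in nucleoplasm. This 3.81-fold difference (log2 1.93 ± 0.05, adjusted p = 1.02e-08) lay just under the 4-fold minimum. Opposite it on the plus strand, the lncRNA HOXA-AS3 (MSTRG.30339, chr7:27129977-27155928) was 73.4, 68.5 and 106 in chromatin and 14.9, 19.8 and 22.8 in nucleoplasm. HOXA-AS3 differed 4.13-fold (log2 2.05 ± 0.22, adjusted p = 2.73e-05). With 1 library left out, chromatin replicate 3 or nucleoplasm replicate 1, 2 loci instead of 3 passed the minimum.

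The promoters of HOXA2, HOXD4, HOXD3 and HOXA-AS3 are shown as the starts that lie in or next to the called loci. They are RefSeq windows of 300 bases on GRCh38.p14, printed 5′ to 3′ along the gene's strand, where capitals mark TGATTNAT (the composite site of HOX with PBX) and TGACAG (the core bound by MEIS and PKNOX) on either strand. The windows are chr7:27102634-27102933 (minus strand), chr2:176151300-176151599 (plus strand), chr2:176157057-176157356 (plus strand) and chr7:27146913-27147212 (plus strand).
HOXA2: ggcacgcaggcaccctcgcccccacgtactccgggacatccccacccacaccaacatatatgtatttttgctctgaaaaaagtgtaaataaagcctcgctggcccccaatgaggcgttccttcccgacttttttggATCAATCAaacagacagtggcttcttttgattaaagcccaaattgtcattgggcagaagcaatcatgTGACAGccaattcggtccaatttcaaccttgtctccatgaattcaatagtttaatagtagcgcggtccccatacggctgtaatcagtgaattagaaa
HOXD4: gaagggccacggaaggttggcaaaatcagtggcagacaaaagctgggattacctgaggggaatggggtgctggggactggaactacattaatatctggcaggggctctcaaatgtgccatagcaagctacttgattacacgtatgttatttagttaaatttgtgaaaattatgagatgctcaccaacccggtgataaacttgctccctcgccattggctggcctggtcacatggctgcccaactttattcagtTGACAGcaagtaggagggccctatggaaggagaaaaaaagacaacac
HOXD3: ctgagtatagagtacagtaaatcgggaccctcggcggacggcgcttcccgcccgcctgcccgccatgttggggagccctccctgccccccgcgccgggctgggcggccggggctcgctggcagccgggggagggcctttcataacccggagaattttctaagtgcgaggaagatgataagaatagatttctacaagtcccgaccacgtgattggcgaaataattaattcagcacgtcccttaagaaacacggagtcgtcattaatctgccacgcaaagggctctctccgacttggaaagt
HOXA-AS3: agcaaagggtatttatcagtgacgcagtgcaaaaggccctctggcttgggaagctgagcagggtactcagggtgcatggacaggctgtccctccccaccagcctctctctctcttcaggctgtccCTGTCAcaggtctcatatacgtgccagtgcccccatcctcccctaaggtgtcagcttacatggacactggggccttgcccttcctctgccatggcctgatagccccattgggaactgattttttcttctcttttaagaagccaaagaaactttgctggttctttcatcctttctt

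Of 41 HOX windows in the RefSeq table, from 30 genes, 2 held TGATTNAT (HOXA2 and HOXD11), against 2.82% of all 35116 windows. TGACAG was in 6 of 41 HOX windows and in 15.8% of all windows. TATAAA, the TATA box, was in 6 of 41 HOX windows and 11.5% of all windows. The motifs do not overlap each other in the printed windows, and a match is a description of the letters only. The HOXD3 window held none of these motifs. The printed windows of HOXA2, HOXD4, HOXD3 and HOXA-AS3 held 11, 4, 25 and 2 CpG dinucleotides, where the median HOX window held 19 and the median of all windows 14.

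Among coding loci, 4 were higher in chromatin at adjusted p under 0.05 (30.2% of all protein-coding genes) and 13 higher in nucleoplasm (57.5% of all protein-coding genes), and 3 (HOXB2, HOXB5 and HOXD11) did not pass. Of the 20 tested, 2 were called in chromatin, where 3.94% of all protein-coding genes were. The median log2 fold change was -0.68 (SD between replicates 0.04), beside -0.39 over all 12493 tested protein-coding genes.

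Most coding loci higher in nucleoplasm held only paralog numbers 7 to 13, as did 12 of the 20 tested coding loci. Genes of these numbers act in the trunk, limbs and urogenital tract. HOXD13, required for digits, was 419, 420.3 and 429 in chromatin against 1365, 1372 and 1396 (log2 -1.70 ± 0.05, adjusted p = 1.31e-08). HOXA7 was 455, 396 and 395 against 1305, 1357 and 1389 (log2 -1.70 ± 0.07, adjusted p = 5.30e-08). HOXC13, a regulator of hair keratin genes, was 423, 309 and 413 against 1056, 1041 and 1134 (log2 -1.51 ± 0.12, adjusted p = 2.75e-06). In these loci the lowest nucleoplasm library lay more than 2 times above the highest chromatin library.

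HOXB9 (log2 -1.48 ± 0.07) and HOXB13 (-1.12 ± 0.10), a marker of prostate lineage, were lower in chromatin by 2.80-fold and 2.18-fold. The HOXA9/HOXA10 locus, whose products are active in blood progenitors and in leukemia, had the highest mean of the 39 loci over the 6 libraries. Its values were 2757, 2188 and 2524 in chromatin and 4711, 4969 and 4911 in nucleoplasm (log2 -0.97 ± 0.08, adjusted p = 4.17e-06). HOXA11, required in the forelimb zeugopod and the uterus, was 452, 354 and 364 against 831, 854 and 918 (log2 -1.16 ± 0.10, adjusted p = 4.83e-06). HOXD8 was 314, 324 and 340.3 against 602, 677 and 732 (log2 -1.03 ± 0.08). None of these fractions overlapped, and each of these loci kept its direction under all scalings tried.

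In the HOXC cluster, HOXC8 (log2 -0.90 ± 0.07), HOXC11 (-0.76 ± 0.06) and the HOXC6/HOXC4 locus (-0.60 ± 0.08) were higher in nucleoplasm. HOXC11 was 722, 667 and 743 in chromatin against 1231, 1194 and 1173 in nucleoplasm, and the HOXC6/HOXC4 locus 263, 305 and 269 against 427, 421 and 423. The HOXC6/HOXC4 difference did not pass the test when libraries were scaled to the same total (log2 -0.14). The HOXB3 locus was 1280, 1311 and 1321 against 1659, 1711 and 1869 (log2 -0.42 ± 0.06, adjusted p = 0.000108), a direction that turned at the same total (0.04).

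HOXD12 was higher in chromatin at low counts, 29.1, 22.8 and 30.7 against 10.5, 18.9 and 20.3 (log2 0.74 ± 0.27, adjusted p = 0.0293), a direction that turned at the same ERCC total (-0.52). Of the coding loci that did not pass, HOXB2, used in the hindbrain, was 413, 408 and 392 in chromatin and 451, 392 and 384 in nucleoplasm (log2 -0.01 ± 0.08). HOXB5 (log2 -0.02 ± 0.36) and HOXD11 (0.34 ± 0.32) lay between 5.17 and 20.4 normalized counts, where standard errors were wide.

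**Figure D2:**
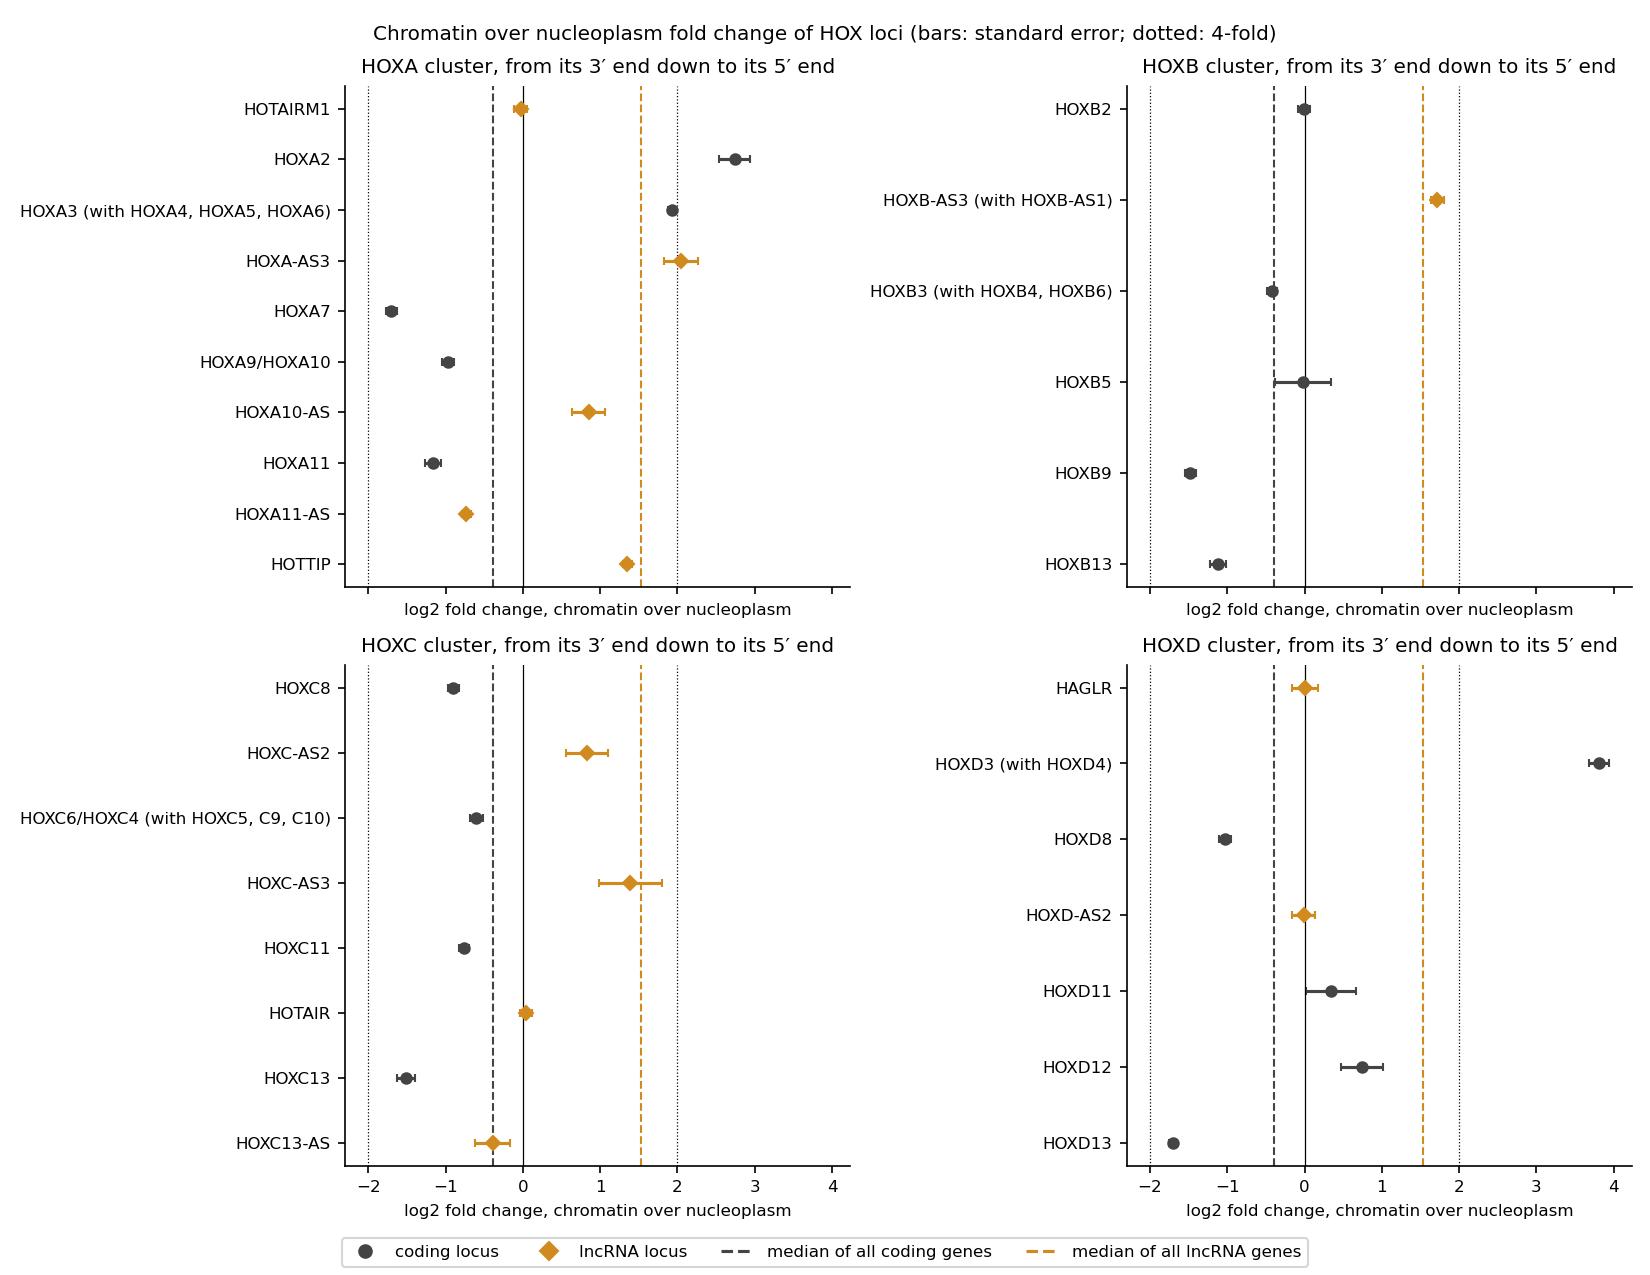
Log2 fold change (chromatin over nucleoplasm, x axis, with standard error) of tested HOX loci in 4 clusters, each ordered by start from the 3′ end; gray circles are coding and orange diamonds lncRNA loci. HOXD3, HOXA2 and HOXA-AS3 lie right of the dotted 4-fold line, HOXD13 and HOXA7 lie farthest left at -1.70, and most lncRNA loci lie left of the median of all lncRNA genes, 1.53.

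By position, 7 tested coding loci held only genes of paralog numbers 1 to 6, and 3 of them (the HOXA2, HOXA3 and HOXD3 loci) were above 0 and 4 below, with a range of -0.42 to 3.81 and a median of -0.01. Of the 12 loci that held only numbers 7 to 13, 2 (HOXD11 and HOXD12) were above 0 and 10 below, with a range of -1.70 to 0.74 and a median of -1.08. These signs are for the deposited scaling and, by the values above, turn for HOXB2, HOXB3 and HOXB5 at the same total and for HOXD11 and HOXD12 at the same ERCC total. The boundary between 6 and 7 was chosen after the fold changes were seen, and the difference was not tested.

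Of 12 tested lncRNA loci, 6 were higher in chromatin (76.3% of all lncRNA genes), 1 was higher in nucleoplasm (9.77% of all lncRNA genes) and 5 did not pass. HOXA-AS3 alone was called, where the chromatin calls took in 37.5% of all lncRNA genes and the nucleoplasm calls 0.669%. The median log2 fold change was 0.43 (SD between replicates 0.09), beside 1.53 over all 3438 tested lncRNA genes. Over the -AS loci alone, without HOTAIR, HOTAIRM1, HOTTIP and HAGLR, it was 0.84.

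HOTTIP (MSTRG.30347, chr7:27198575-27207259, plus strand) was the highest HOX lncRNA. Its normalized counts were 2213, 2276 and 2054 in chromatin and 813, 894 and 853 in nucleoplasm, a 2.55-fold difference (log2 1.35 ± 0.06, adjusted p = 7.74e-08) that did not pass at the same ERCC total (0.03). Its divergent neighbor HOXA13, read as the row just outside the matching limit (chr7:27186573-27200340, minus strand), was 4739, 4403 and 4929 in chromatin and 4604, 4733 and 4480 in nucleoplasm. The HOXA13 row thus overlapped between fractions (log2 0.03 ± 0.05, adjusted p = 0.666).

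HOTAIR (MSTRG.7133, chr12:53962084-53975060, minus strand) was 490.3, 521 and 433 in chromatin and 462, 469 and 473 in nucleoplasm. The fractions overlapped, and the log2 fold change was 0.04 ± 0.08 (adjusted p = 0.674). HOTAIRM1 (MSTRG.30335, chr7:27095647-27100265, plus strand), which is induced in myeloid differentiation, was 434, 371 and 351 against 395, 372 and 413 (log2 -0.03 ± 0.09, adjusted p = 0.739). HAGLR (MSTRG.19575, chr2:176164051-176188958, minus strand) was 67.6, 97.3 and 72.5 against 66.7, 86.1 and 81.1 (log2 0.01 ± 0.17, adjusted p = 0.954). None of the 3 passed under the deposited scaling, and this depends on the scaling. At the same total HOTAIR (0.50) and HOTAIRM1 (0.43) passed as higher in chromatin, where the median of all genes was 0.44. Both passed as higher in nucleoplasm at the same ERCC total. At the same ERCC total HOTAIR (-1.29), HOTAIRM1 (-1.35) and HAGLR (-1.30) lay near the median of all genes, -1.33.

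The HOXB-AS3 locus, with HOXB-AS1, was 431, 441 and 409 in chromatin and 129.9, 123 and 135 in nucleoplasm (log2 1.72 ± 0.08, adjusted p = 7.55e-08), and did not pass at the same ERCC total (0.40). HOXA11-AS was the 1 lncRNA locus higher in nucleoplasm, at 495, 439.5 and 476 against 751, 788 and 804 (log2 -0.73 ± 0.06, adjusted p = 6.72e-06). HOXD-AS2, at 73.4, 82.9 and 98.8 against 74.6, 87.8 and 94.6, overlapped between fractions (log2 -0.01 ± 0.15). Among the low lncRNA loci, HOXC-AS3 was at 15.1, 10.8 and 17.6 against 2.63, 4.30 and 9.29 (log2 1.39 ± 0.41, adjusted p = 0.0108), which did not pass at the same ERCC total (0.21). HOXA10-AS, at 85.0, 48.0 and 56.0 against 35.1, 31.0 and 34.6 (log2 0.85 ± 0.21), and HOXC-AS2, at 26.8, 22.8 and 16.5 against 8.78, 12.1 and 15.2 (0.83 ± 0.27), were higher in chromatin and turned at the same ERCC total (-0.45 and -0.42). HOXC13-AS, at 14.0, 18.0 and 12.1 against 23.7, 16.4 and 18.6 (log2 -0.39 ± 0.23), did not pass.

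A scaling cancels when a lncRNA is compared with the coding locus on the opposite strand in the same library. There were 15 pairs, overlapping or with starts at most 2000 bases apart, in which both loci were tested. In 13 pairs the ratio of lncRNA to coding locus was on average higher in chromatin (81.7% of all 1987 such pairs of tested lncRNA and protein-coding genes), and in 11 of them the 3 chromatin ratios lay above all 3 nucleoplasm ratios (72.3% of all such pairs). The reverse held in 2 pairs, both with the HOXD3 locus (12.2% of all such pairs). With 3 libraries against 3 the smallest two-sided p of the exact permutation test is 0.1, so no pair could reach 0.05. The libraries were permuted freely, without keeping the fractions of a culture together. The 13 pairs without overlap had this exact permutation p of 0.1 (0.115 adjusted over the 15 pairs), and some pairs share a locus.

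HOXA-AS3 over HOXA7 had the largest shift toward chromatin, with log2 ratios of -2.62, -2.52 and -1.88 in chromatin and -6.36, -6.03 and -5.87 in nucleoplasm, a difference of 3.75. For the HOXB-AS3 locus, whose row starts with HOXB-AS1 head to head with HOXB2, the ratios to HOXB2 were 0.06, 0.11 and 0.06 against -1.79, -1.66 and -1.5, a difference of 1.73. The shared lncRNA row and HOXB2 had nearly equal counts in chromatin, while HOXB2 was ahead in nucleoplasm. HOTAIR over HOXC11 differed by 0.79, and HOXA11-AS over HOXA11 by 0.43. Under the deposited scaling HOTAIR itself did not differ between fractions beyond its spread. HOXA10-AS over HOXA9/HOXA10 differed by 1.82, HOXC13-AS over HOXC13 by 1.12, and HOXD-AS2 over HOXD8 by 1.02.

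Against this, HOXD-AS2 over the HOXD3 locus had ratios of -6.17, -6.22 and -5.75 in chromatin and -2.17, -2.46 and -2.04 in nucleoplasm, a difference of -3.82, and HAGLR over the HOXD3 locus a difference of -3.80. HOXA-AS3 over the HOXA3 locus overlapped between fractions (difference 0.11, exact permutation p = 0.7). Libraries were directional, but leakage of reads to the opposite strand was not tested.

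**Figure D3:**
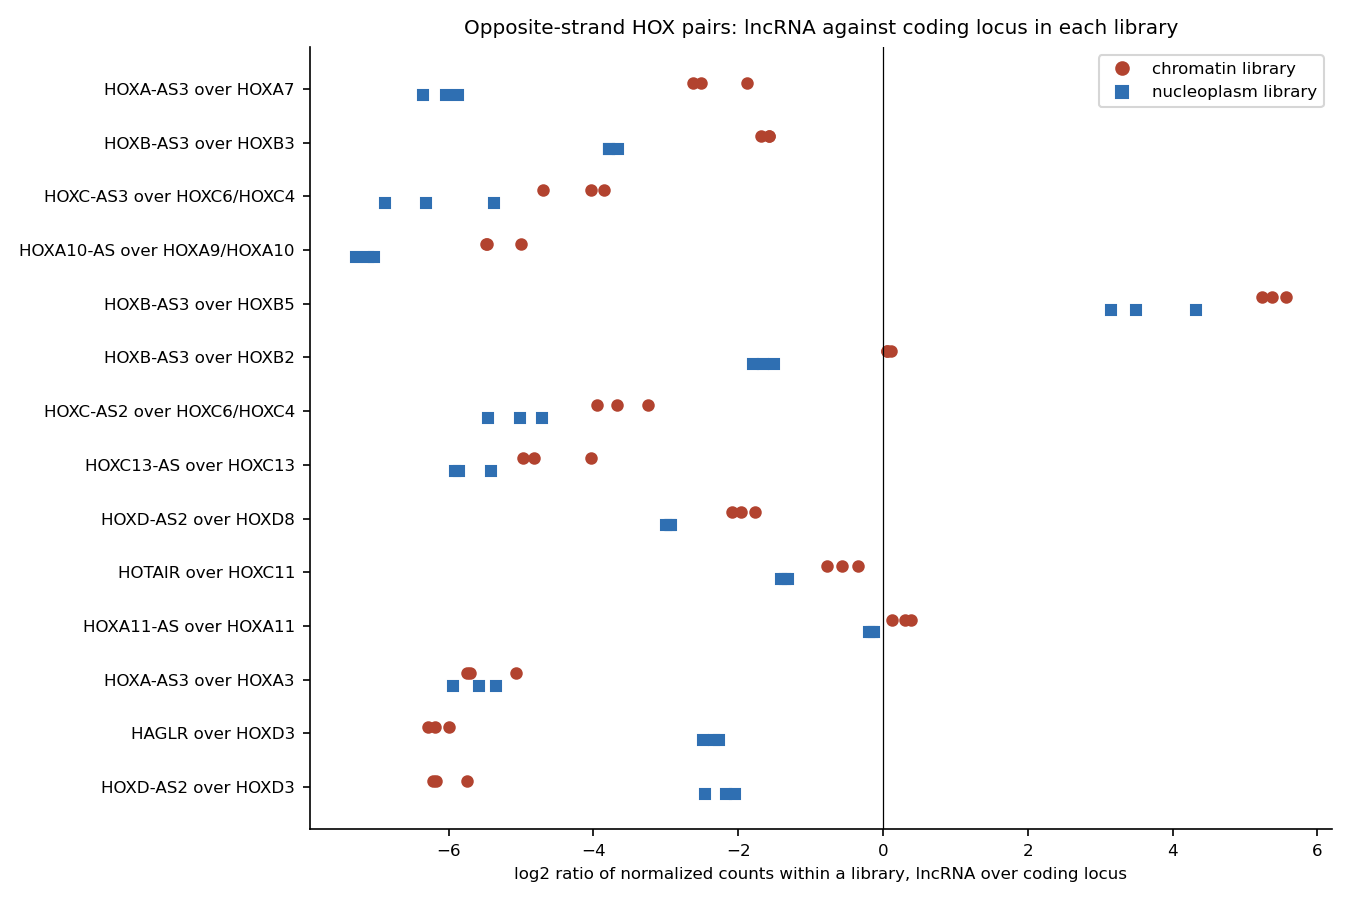
Log2 ratio of normalized counts, lncRNA over opposite-strand coding locus (x axis), in each chromatin (red circles) and nucleoplasm (blue squares) library for pairs with both loci tested. Chromatin ratios lie right of nucleoplasm ratios without overlap in 11 pairs and left of them in the 2 lowest pairs, both with the HOXD3 locus.

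By cluster, the median log2 fold change was -0.03 in HOXA (11 loci, SD between replicates 0.10), -0.22 in HOXB (6 loci, 0.07), -0.50 in HOXC (8 loci, 0.03) and 0.01 in HOXD (7 loci, 0.19), beside -0.02 over all genes. HOXA had 5 loci higher in chromatin and 5 higher in nucleoplasm at adjusted p under 0.05, with 2 called in chromatin. HOXB had 1 and 3, HOXC 2 and 4, and HOXD 2 and 2, with the HOXD3 locus called. Of all tested genes, 44.2% were higher in chromatin, 45.2% were higher in nucleoplasm and 21.2% were called in chromatin. Split by kind, coding loci had medians of -0.61, -0.42, -0.83 and 0.34 in HOXA, HOXB, HOXC and HOXD, and lncRNA loci 0.85, 1.72 (1 locus), 0.43 and -0.00. Clusters were not tested against each other.

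Levels between loci were compared per kilobase of annotated HOX exon. The whole count of the row is divided, so intronic or other reads that an assembled row may hold raise its level, and the order depends on this. In chromatin the HOXD3 locus had the highest level, 1170 ± 105 normalized counts per kilobase (SD, n = 3). HOTTIP (429 ± 22.5) and the HOXA3 locus (412 ± 15.2) followed and lay within 1 SD of each other, with the HOXA9/HOXA10 locus next (369 ± 42.4). In nucleoplasm the HOXA9/HOXA10 locus was highest (722 ± 20.1), before HOXD13 (570.2 ± 6.70) and HOXA7 (560.0 ± 17.6), which did not differ beyond their spread, HOXC13 (457 ± 21.2) and HOXB9 (429.6 ± 31.0). The HOXD3 locus had rank 19 there, at 84.1 ± 15.6, of 39 loci.

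The 7 loci below the test filter were HOXA-AS2, HOXB-AS2, HOXB7, HOXB8, HOXC12, HOXD9 and HOXD10, with fraction means of at most 11.5 normalized counts. HOXC12 had 10, 4 and 7 reads in chromatin and 0 in each nucleoplasm library, which, taking 3 reads per library as the upper limit of a count of 0, is at least 3.11-fold higher in chromatin. HOXD10 had 9, 8 and 13 reads against 0, 6 and 5. HOXB8 had 7, 6 and 8 against 4, 9 and 2. HOXB7 had 0 reads in chromatin and 3, 4 and 3 in nucleoplasm, where no fold is given since both fractions were near the limit of 3 reads per library. HOXA-AS2 had 13 reads in chromatin and 5 in nucleoplasm, HOXD9 had 7 and 3, and HOXB-AS2 had 6 and 2. These loci were not tested at this depth, and the limit covers counting error only.

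The scaling set the balance of the calls. The deposited size factors place the median of all genes at -0.02, the same total per library at 0.44 and the same total of the 92 ERCC standards, which were added in equal volume to both fractions, at -1.33. At the same total 5 HOX loci were called in chromatin (25.6% of all genes) and 0 in nucleoplasm (3.83% of all genes). At the same ERCC total 1 was called in chromatin (11.9% of all genes) and 11 in nucleoplasm (34.4% of all genes). The direction turned under at least 1 scaling in 13 of the 32 loci. Relative to the median of all genes, 16 of the 32 loci lay above it, 7 of 20 coding and 9 of 12 lncRNA loci.

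**Figure D4:**
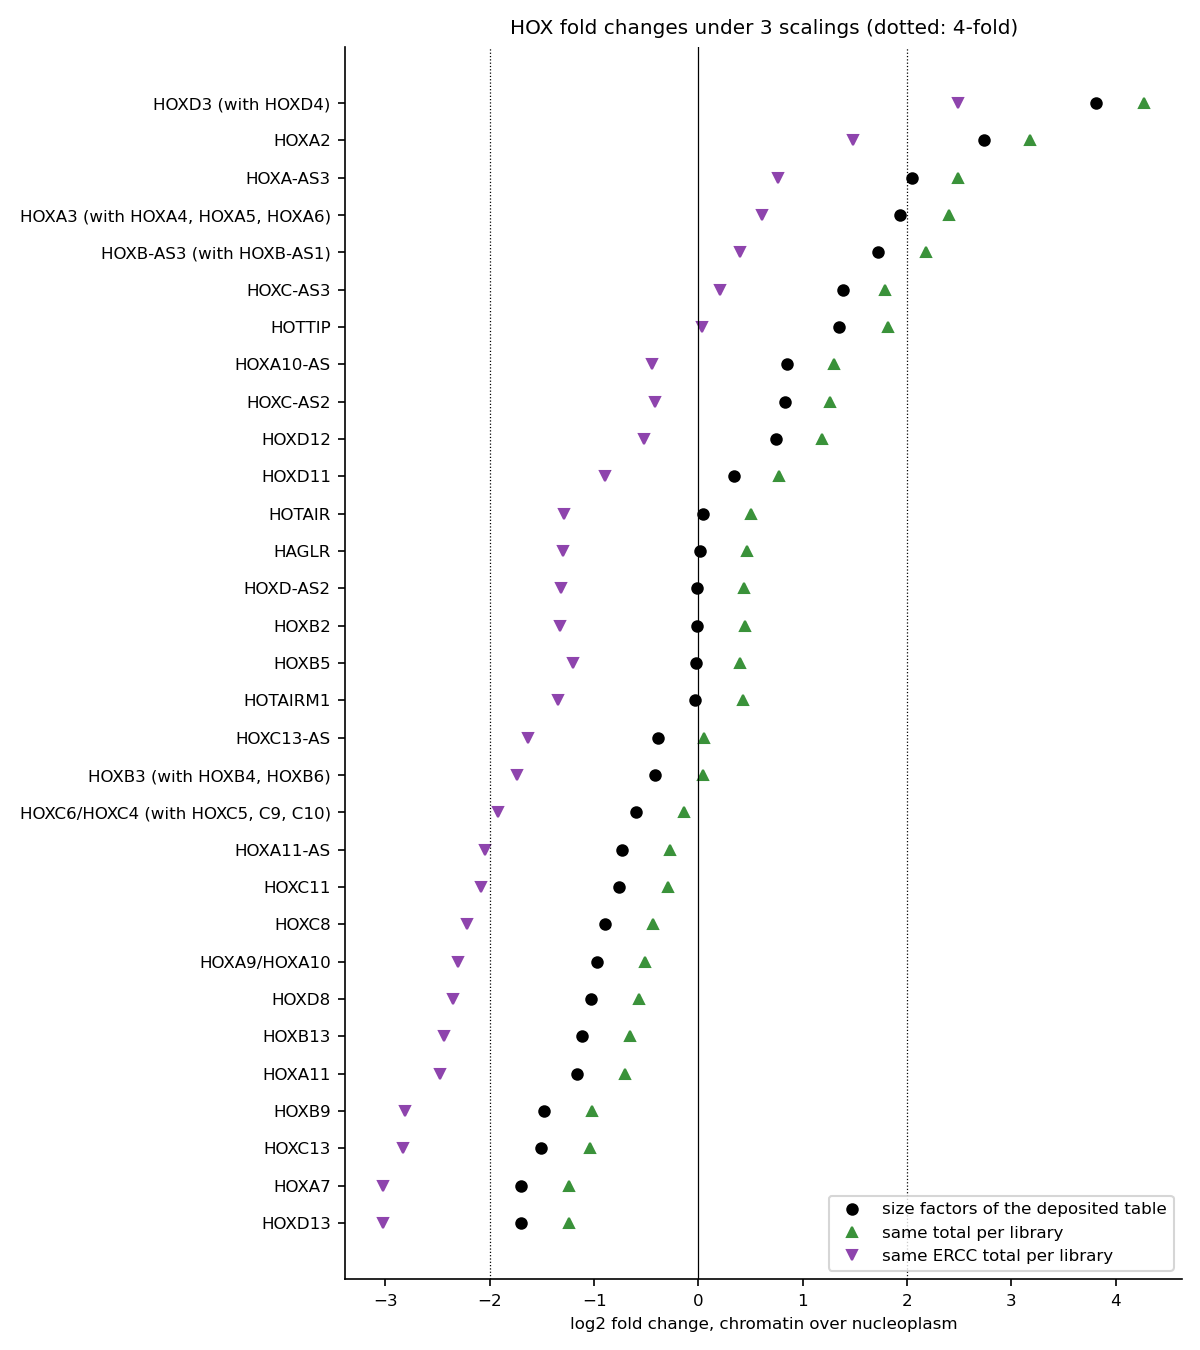
Log2 fold change (x axis) of tested HOX loci under the deposited size factors (black), the same total (green) and the same ERCC total (purple) per library. The ERCC scaling moves all loci left, so that the HOXD3 locus alone stays past the 4-fold line on the right, at 2.49, and HOXD13 and HOXA7 reach -3.02.

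Long reads gave values gene by gene where the short-read rows were merged. They are TPM, a share of all transcripts corrected for length, of chromatin RNA in 2 libraries, summed over the transcripts matched to a gene, and TPM hold no depth. Of the 41 members, 23 were above 0 in both libraries (16 of 27 coding, 7 of 14 lncRNA genes), 5 in 1 library and 13 in none. Of all 56 HOX genes, 32 were above 0 in both. Replicate 1 was the higher in 21 of the 23, with a median log2 ratio of replicate 1 to 2 of 1.51, where the median of all 77001 transcripts above 0 in both libraries was 0.37. Levels below are therefore given for both libraries, and no test was made.

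Over matched transcripts, HOXA9 had the highest long-read level, 80.2 and 23.8 TPM in replicates 1 and 2. Transcripts matched to HOXA10 were listed at 0 in both, but a transcript (ENST00000613671.1, chr7:27170592-27174320, minus strand) that GENCODE 44 no longer holds and that lies nearest to a HOXA10 transcript (Jaccard index 0.997) had 42.9 and 18.4 TPM. That transcript also lies inside the span of HOXA9, and its strand in the long reads was not tested. Whether HOXA10 itself was present in chromatin long reads was therefore not settled. HOTAIRM1 had 60.4 and 8 TPM and HOXA13 34.7 and 17.2 TPM, so that their order differed between the libraries. Some same-strand transcripts inside a gene were not matched to it and are not in its sum. Inside HOTAIRM1 such a transcript (ENST00000619311.1) had 29 and 0.478 TPM. Inside HOXA11-AS another (ENST00000620211.1) had 9.26 and 1.62 TPM. The order of genes, in replicate 1 above all, depends on this matching.

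Within the HOXD3 locus, HOXD4 had 6.93 and 5.09 TPM and HOXD3 3.88 and 0.847 TPM. A transcript over MIR10B (ENST00000385011.1, chr2:176150303-176151549), just upstream of the start of HOXD4, had 5.87 and 1.58 TPM. The locus that was highest in chromatin short reads held transcripts of HOXD4, HOXD3 and MIR10B in long reads, each below 10 TPM. Within the HOXA3 locus, HOXA5 had 7.83 and 2.84 TPM, HOXA6 6.52 and 4.13, HOXA3 3.34 and 2.65, and HOXA4 0.997 and 0.535. In the HOXB3 locus, HOXB4 had 16.2 and 5.54 TPM, HOXB3 18.2 and 1.28, and HOXB6 2.86 and 1.16. In the HOXC6/HOXC4 locus, HOXC6 had 1.84 and 1.11 TPM and HOXC9 0.304 and 3.15, while HOXC4 was listed at 0 in both.

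Among lncRNAs, HOXA10-AS had 17.6 and 4.12 TPM, HOXA11-AS 11.8 and 3.98, HOXB-AS1 11.3 and 7.03, HOTTIP 9.09 and 4.53, HOXD-AS2 8.57 and 3.01 and HOTAIR 3.83 and 2.37. HOXB-AS3, which shares its short-read row with HOXB-AS1, was listed at 0 and 0.836 TPM. HOXA2, called in chromatin by short reads, was at 0.839 and 0.221 TPM, and HOXA-AS3 at 0 and 1.74 TPM. HOXA7 and HOXC-AS3 were listed at 0 in both long-read libraries.

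**Figure D5:**
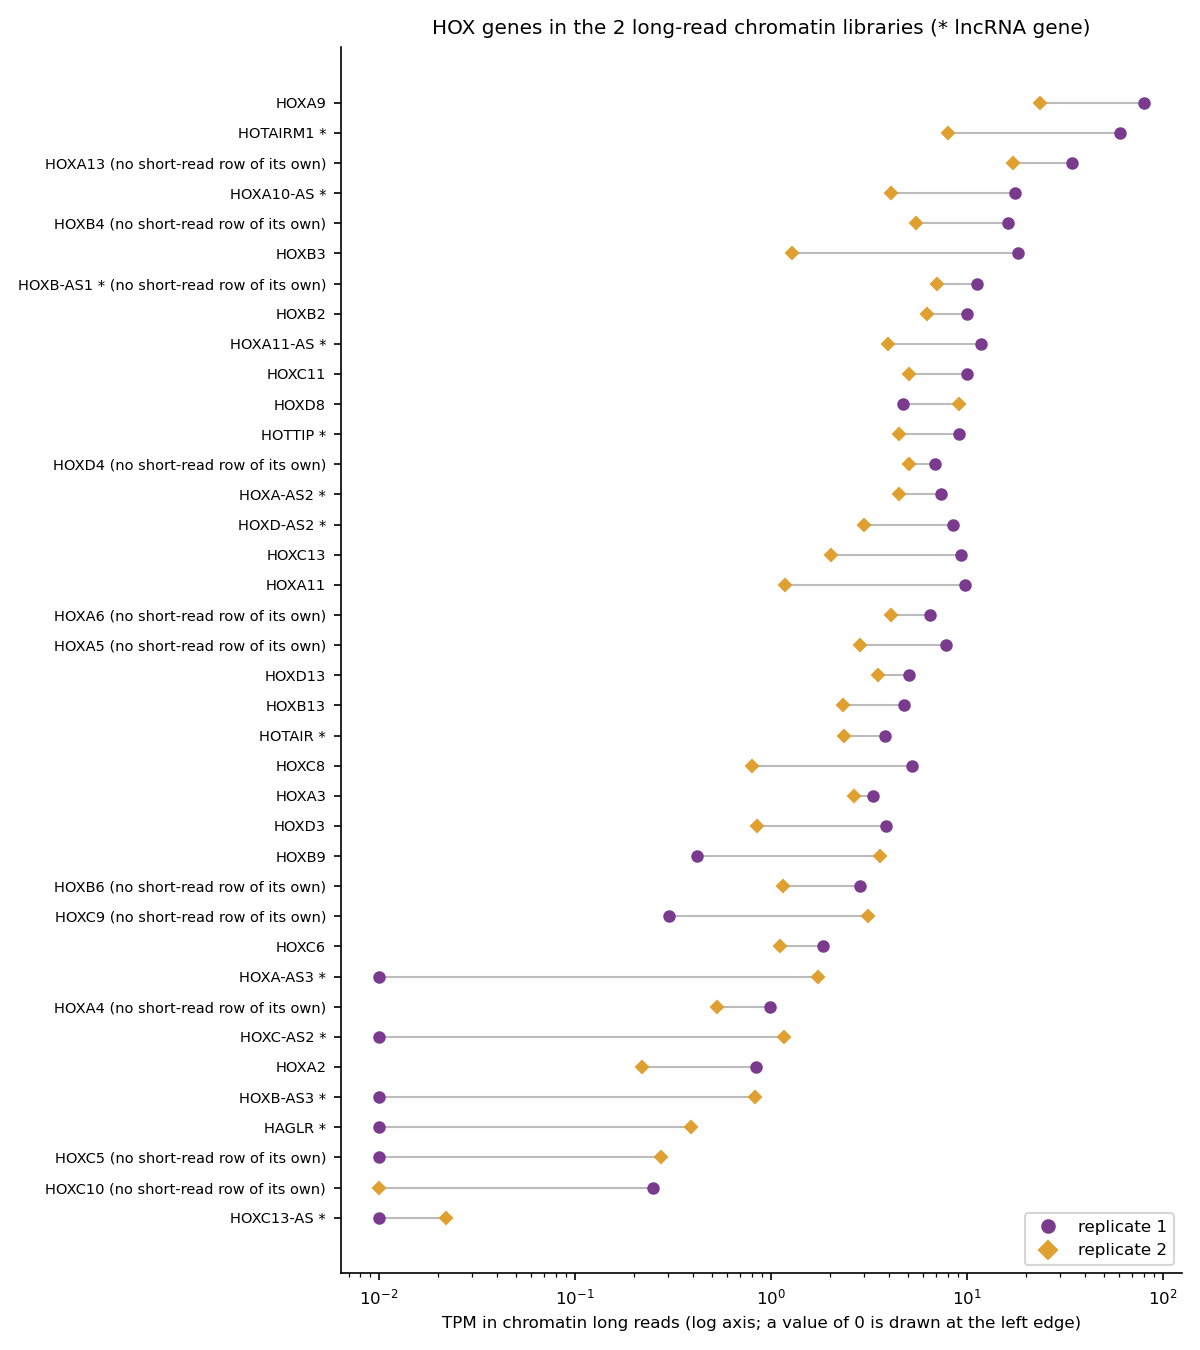
TPM (log axis) of HOX genes above 0 in replicate 1 (purple circles) or replicate 2 (orange diamonds) of the long-read chromatin libraries; lncRNA genes carry a star, and 0 is drawn at the left edge. Over matched transcripts HOXA9 is highest at 80.2 and 23.8 TPM, and replicate 1 lies to the right in most genes above 0 in both.

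The cofactors and regulators of HOX genes were measured by lists chosen with earlier results of these data known, and their counts at adjusted p under 0.05 stand beside 30.2% (chromatin) and 57.5% (nucleoplasm) of all protein-coding genes. All 9 TALE cofactors were tested, 5 higher in chromatin and 4 higher in nucleoplasm, with a median log2 fold change of 0.58. PBX3 (1.22 ± 0.08) and MEIS2 (1.01 ± 0.06) were the highest and MEIS3 (-1.45 ± 0.06) and PBX2 (-1.42 ± 0.06) the lowest, and PBX3 and MEIS2 turned at the same ERCC total. MEIS1, a partner of HOXA9 in leukemia, had a mean of 2205 ± 37.5 (SD, n = 3) in chromatin against 1145 ± 27.6, which also turned at the same ERCC total (log2 0.94 and -0.38). Of the 6 ParaHOX and CDX genes, CDX2 alone was tested (165 ± 6.42 against 252 ± 8.40, log2 -0.61 ± 0.08), and GSX1, PDX1, CDX1 and CDX4 were at 0 in all libraries.

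Of 19 Polycomb genes 15 were tested, 6 higher in chromatin and 9 in nucleoplasm, with a median of -0.43. PHC3 (2.26 ± 0.07), the 1 gene of these lists that was called, and EZH2 (1.5 ± 0.06), the catalytic subunit of PRC2, were the highest, and RNF2 (-1.32 ± 0.05), an E3 ligase of PRC1, was among the lowest. At the same ERCC total PHC3 was at 0.94, EZH2 at 0.18 and RNF2 at -2.64. All 14 trithorax and MLL genes were tested, with 6 higher in chromatin, 7 higher in nucleoplasm and a median of -0.11. KDM6A (1.35 ± 0.06) and KMT2C (1.20 ± 0.06) were the highest, and MLLT1 (-1.56 ± 0.07) and MEN1 (-1.49 ± 0.05) the lowest. At the same ERCC total KMT2C turned and KDM6A fell to 0.02. The boundary factors RAD21 (-1.46 ± 0.06), CTCF (-0.99 ± 0.05) and SMC3 (-0.92 ± 0.05) were all higher in nucleoplasm, with a median of -0.99.

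The 3 nearest protein-coding genes on each side of each cluster gave 24 flanking genes, of which 22 were tested. None was called in chromatin by limma (3.94% of all protein-coding genes) and 3 were called in nucleoplasm (CBX1, ATP5MC3 and ATP5MC1; 5.72% of all protein-coding genes). At adjusted p under 0.05, 5 were higher in chromatin and 14 higher in nucleoplasm (30.2% and 57.5% of all protein-coding genes), and the median log2 fold change was -0.95, beside -0.39 over all protein-coding genes. EVX2 (1.81 ± 0.23), a homeobox gene 8759 bases from HOXD13, and SMUG1 (1.03 ± 0.04), next to HOXC, had the highest values, and CBX1 (-2.32 ± 0.07) and ATP5MC3 (-2.29 ± 0.09) the lowest, with SMUG1 turning at the same ERCC total. EVX2 had a mean of 34.0 ± 7.47 (SD, n = 3) in chromatin against 8.89 ± 1.28. EVX1, the homeobox gene beyond HOXA13, did not pass (0.23 ± 0.21).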

How the data were processed

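Nuclear RNA of HAP1 cells was measured after fractionation, addition of ERCC standards and depletion of ribosomal RNA. Short-read alignment by the authors used HISAT2 2.1.0 on hg38 plus ERCC sequences; they assembled and merged transcripts with StringTie, and took gene counts; the deposited values are a signal per gene, these counts divided by DESeq2 size factors, and were not pooled. Long reads went through minimap2 and StringTie; the deposited values are TPM per transcript, and whether reads were stranded first is not stated. Merging of assemblies put neighboring HOX genes on shared rows. Groups came from the sample titles, since another label names chromatin for all 8 libraries.

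Whole multiples of the smallest value (tolerance 0.01) gave gene counts per library, called reads here, and covered 100.0% of the values. The authors took these counts from StringTie, so they need not be single sequenced reads. Fractions were compared by limma 3.58.1 in R 4.3.3, with its trend option, on log2(normalized count + 1), so fold changes of low genes are understated. Tested genes had at least 10 normalized counts in 3 or more libraries and a span over 200 bases, ERCC left out. Fold changes were not adjusted for the culture. Alternatives were count models on the recovered reads (DESeq2 1.42.0, edgeR 4.0.16), different filters, pseudocounts and scalings, the replicate number as a block, and each library left out. On simulated counts for 26066 genes with 200 changed by 3 on the log2 scale, limma recovered 196, with 4 unchanged genes past both thresholds. Far more genes differed in the data, where 44.2% were higher in chromatin and 45.2% higher in nucleoplasm. The simulation therefore does not cover this setting or the choice of scaling. Pairs were compared by exact permutation tests. Intervals and limits cover counting error only.

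Members and lists were chosen with earlier results of these data known. HOX loci that passed the filter were named, with values per library for HOTAIR, HOTAIRM1, HOTTIP, HAGLR, the 6 highest coding and 6 highest noncoding loci, those called and those in pairs. From other lists the 2 highest and 2 lowest fold changes were named, beside MEIS1, EVX1 and the genes at 0, which were chosen after their values were seen. Values of some genes that these rules name are not reported here, in text or figures, though counts and medians include them. Exact matches of 50 bases outside the clusters were found for exons of 2 of the 56 HOX genes, HOXA6 (at most 0.264% of its positions per gene) and HOXB7. Promoter and microRNA sequences were read from RefSeq tables.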

Additional observations from a re-analysis of the deposited data

How the results depend on the processing

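Counts and medians moved mostly with the scaling and the filter, and the cause was not tested. Called in chromatin were 3 HOX loci, 4 with DESeq2 (HOXA3 added, at 2.02), 4 unfiltered (HOXC12 added), 2 with a pseudocount of 5 (HOXA-AS3 lost, at 1.85), 2 at a mean of 50 or more (HOXA2 not tested), 5 at the same total, 1 at the same ERCC total and 7 at a 2-fold minimum (2 to 3 with 1 library left out); called in nucleoplasm were 0, 11 at the same ERCC total and 7 at a 2-fold minimum (0 with 1 library left out). The share of all genes was not counted for DESeq2, the other filters and pseudocounts, the 2-fold minimum and the left-out libraries. Whether the HOX counts there are many or few was therefore not tested. The coding median was -0.68, and -0.42 unfiltered, -0.94 at a mean of 50 or more, -0.59 with DESeq2 and with a Jaccard index of at least 0.8, -0.22 at the same total and -2.0 at the same ERCC total (-0.69 to -0.67 with 1 library left out). The lncRNA median was 0.43, and in the same order 0.84, 0.02, 0.55 (DESeq2), 0.88 and -0.87, and 0.84 for -AS genes only (0.33 to 0.51 with 1 library left out). HOXA was at -0.03, and at 0.41 without a filter, -0.24 at a mean of 50, 0.43 at the same total, -1.35 at the same ERCC total and 0.41 at the stricter Jaccard index (-0.12 to 0.03). HOXB was at -0.22, and at -0.02, -0.42, 0.22 and -1.54 (-0.41 to -0.20). HOXC was at -0.50, and at -0.39, -0.76, -0.05, -1.78, -0.42 with DESeq2, -0.46 with a pseudocount of 5 and -0.39 at the stricter Jaccard index (-0.60 to -0.42). HOXD was at 0.01, and at 0.34 without a filter, 0.47 at the same total and -1.30 at the same ERCC total (-0.10 to 0.11).

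Of 504 locus values under alternatives, 445 kept direction and side of the threshold and 34, from 13 loci, changed sign. At the same total these included HOTAIRM1 (0.43), HOXB2 (0.45), HOXB3 (0.04), HOXB5 (0.40), HOXC13-AS (0.05) and HOXD-AS2 (0.44), and at the same ERCC total HOXA10-AS (-0.45), HOTAIR (-1.29), HOXC-AS2 (-0.42), HOXD12 (-0.52), HOXD11 (-0.90) and HAGLR (-1.30). With TMM factors HOXB2 (0.02), HOXB5 (0.01) and HOXD-AS2 (0.01), with edgeR HOXB2 (0.01) and HOXD-AS2 (0.02), and with DESeq2 HOTAIRM1 (0.06), HOXB2 (0.08) and HOXD-AS2 (0.08) changed sign. With 1 library left out, HOTAIRM1 (-0.12 to 0.03), HOXB2 (-0.06 to 0.06), HOXB5 (-0.39 to 0.27), HOXD-AS2 (-0.13 to 0.08), HOTAIR (-0.02 to 0.11) and HAGLR (-0.15 to 0.11) did so, none of which passed the test with all libraries. HOXC-AS2 and HOXD12 passed in limma and missed it with DESeq2 and without some libraries. The long-read count of 23 ranged from 19 at 1 TPM or more to 24 with retired transcripts matched by span, an alternative chosen after seeing the data.

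Replicate numbers were not shown to pair the samples (correlations of same-numbered deviations 0.087, 0.053 and 0.063, each the highest for its number). With the replicate number as a block, the HOX calls were 3 in chromatin and 0 in nucleoplasm, and over all genes 5540 and 2218 were called instead of 5531 and 2208. Low loci are limited by depth, and the TPM values carry no depth.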

Other observations

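Rows inside the clusters that match no HOX gene also held RNA, and the following were chosen after their values were seen. An assembled row inside the HOXC6/HOXC4 locus on the same strand (MSTRG.7145, chr12:54019910-54022589, matched to the unnamed gene ENSG00000260597) had a mean of 151 ± 7.43 (SD, n = 3) in chromatin against 10.0 ± 3.49, with a log2 fold change of 3.84 ± 0.25 and an adjusted p of 8.08e-07 in limma. It was the 1 such row called in chromatin among 5 tested, the HOXA13 row included, where 21.2% of all tested genes were called. It lay in a host locus that was itself higher in nucleoplasm (-0.60). Another of the 5, RPL9P28 in the HOXB cluster, was called in nucleoplasm, where 8.47% of all tested genes were called. RPL9P28 had a mean of 1.93 ± 1.35 in chromatin against 11.8 ± 1.46 (log2 -2.21 ± 0.38, adjusted p = 0.0005 in limma). Exact matches elsewhere were checked for HOX genes only, so whether the RPL9P28 reads came from this row was not tested. HAGLROS, opposite HAGLR at chr2:176177717-176179008, was at 10.7 ± 3.64 in chromatin and 28.1 ± 1.25 in nucleoplasm (log2 -1.37 ± 0.26, adjusted p = 0.00101 in limma). HAGLR did not differ beyond its spread under the deposited scaling.

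In the long-read table, 17 newly assembled transcripts inside the clusters matched no HOX gene on their strand, and 7 of these lay only opposite a HOX gene. MSTRG.71754.1 (chr7:27162432-27163858, plus strand), opposite HOXA9, had 10.4 TPM in both libraries, and MSTRG.71763.1 (chr7:27193195-27201843, plus strand), which spans HOXA13 and the start of HOTTIP, had 13.4 and 4.97 TPM. MSTRG.71752.3 (chr7:27147163-27157286, plus strand), which overlaps HOXA-AS3 on its strand and HOXA7 on the other, had 8.81 and 1.75 TPM. Whether the strand of these long reads was assigned correctly was not tested.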
